A study of Mus musculus with 6 samples.

Results

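The eosinophil and mast cell genes are 10 transcripts that mark 2 kinds of granule-bearing blood cells: Prg2, Epx, Siglecf and Il5ra for eosinophils, and Cpa3, Mcpt4, Tpsb2, Cma1, Kit and Hdc for mast cells. They were chosen by name, with their values in these data known, and matched to the gene column of a deposited expression table. Of the 10 names, 9 were found among the 23361 genes of that table, and all 9 had been tested by the authors. No row was matched to the name Siglecf, so it is not in the expression counts below, but the sequence searches include it.

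RNA was sequenced from cells of mouse hindlimb muscle, labelled as primary satellite cells, which are the resident stem cells of skeletal muscle. The labels give 3 samples from AUF1-null (KO) mice and 3 from wild type (WT) mice, all at 4 months of age, bred through C57BL/6 on a 129 background. In all of them, muscle was digested with collagenase and cells carrying Sdc4 were taken by fluorescence-activated sorting. Sdc4 is a surface proteoglycan, and the sources used here mention no step against blood cells. AUF1, encoded by Hnrnpd, is a protein that binds AU-rich sequences in mRNA and influences how long the mRNA persists. The authors' deposited table holds 1 value per gene for each of 2 conditions named q2 and q1, pooled over samples, on the scale of FPKM, in which read counts are divided by transcript length and library size. The sources used here do not tie q2 or q1 to AUF1-null mice, so every direction is that of q2 relative to q1, not of a genotype. Values of single samples were not analysed here, so no SD and no number of replicates stands beside a value, and the depth behind each value is unknown. The targeted gene Hnrnpd was listed at 5.59 FPKM in q2 and 7.50 FPKM in q1 in the authors' deposited table without a call (q = 0.999), so it does not settle which condition is which.

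Eosinophils and mast cells both arise from bone marrow precursors, but they reach tissue in different ways. Eosinophils mature in the marrow under interleukin 5, circulate, and enter tissue in response to eotaxin chemokines; in injured mouse muscle they have been described as a source of interleukin 4. Mast cells leave the marrow as precursors, mature inside connective tissue under stem cell factor, and stay there for long periods, filled with proteases, heparin and histamine.

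The transcripts of the 2 eosinophil granule proteins were higher in q2, while the mast cell protease transcripts were lower in q2 without passing the authors' test. Prg2 and Epx rose in q2 by 9.81-fold and 6.39-fold in the authors' deposited table. The 4 mast cell protease genes Tpsb2, Cma1, Cpa3 and Mcpt4 had log2 fold changes of -1.09, -0.46, -0.82 and -0.39 there, Kit had 0.06 and Hdc 1.20. A gene was called where the authors' Cuffdiff q-value was below 0.05. By that rule 2 members were called, both higher, against 0.612% of all 14858 tested genes called in either direction, 0.498% called higher and 0.114% called lower. Because the members were selected from the same contrast, these counts describe them and nothing is read from them.

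**Figure D1:**
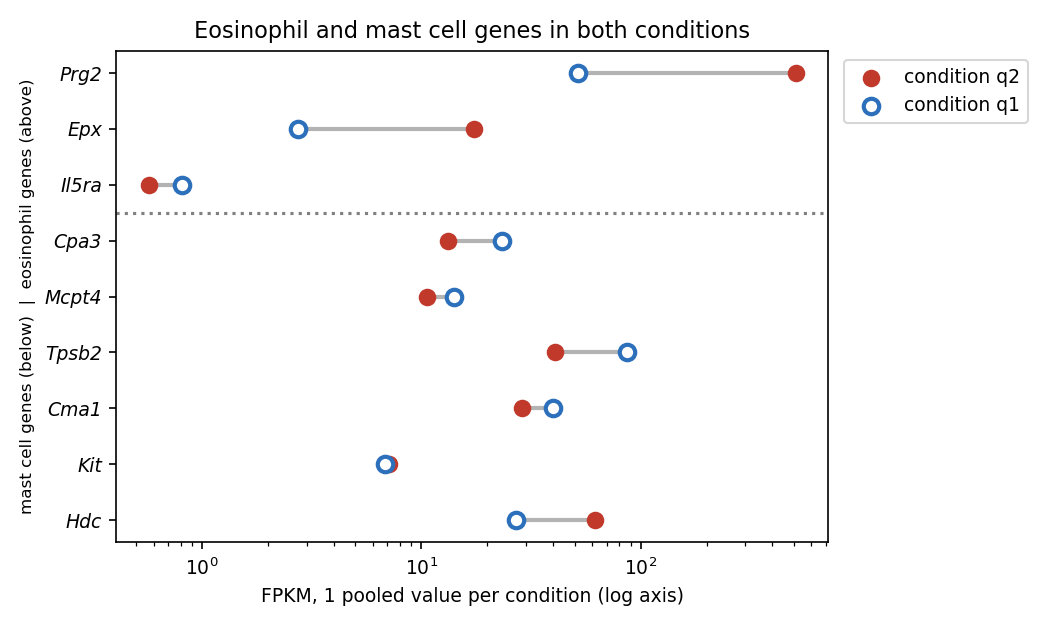
FPKM of each member on a log axis, with 1 pooled value per condition (filled red, q2; open blue, q1); the 3 eosinophil genes lie above the dotted line and the 6 mast cell genes below it. Prg2 and Epx lie far to the right in q2 (509.9 and 17.4), whereas Tpsb2, Cma1, Cpa3 and Mcpt4 lie to the left of their q1 values.

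Prg2 encodes major basic protein, the crystalline core of the eosinophil granule. It was listed at 509.9 FPKM in q2 and 52.0 FPKM in q1 in the authors' deposited table (log2 fold change 3.29, q = 0.0108). That q is the smallest in that table, but 69 tested genes share the smallest p-value behind it. The Prg2 level exceeded that of 98.6% of tested genes in q2 and of 87.7% in q1. The log2 fold change of Prg2 exceeded that of 99.3% of tested genes above 0 in both conditions. Prg2 made up 96.6% of the summed FPKM of the 3 eosinophil genes in q2 and 93.6% in q1, so any sum over the eosinophil genes is in effect a value of Prg2. Prg2 lies at chr2:84980461-84983632 (GRCm38, 1-based) on the plus strand, with 6 exons in the annotated transcript.

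Epx encodes eosinophil peroxidase, a haem enzyme of the granule matrix. Epx stood at 17.4 FPKM in q2 and 2.73 FPKM in q1 in the authors' deposited table (log2 fold change 2.68, q = 0.0108). With 1 FPKM added to both values its fold fell to 4.95, against 9.64 for Prg2. The level of Prg2 was 29.3 times that of Epx in q2 and 19.1 times in q1, on the FPKM scale, which divides by transcript length. Both granule genes thus stood in the same order in both conditions.

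Il5ra, the specific subunit of the interleukin 5 receptor, did not follow the granule genes. It was listed at 0.57 FPKM in q2 and 0.81 FPKM in q1 in the authors' deposited table (log2 fold change -0.51, q = 0.999). Both values are low: only 6.14% of tested genes were lower in q2 and 10.9% in q1. The lack of a call does not show that Il5ra was the same in both, and the same holds for every uncalled gene named below. Siglecf encodes a sialic acid-binding receptor of mouse eosinophils that alveolar macrophages also carry. A row under the name Siglec5, which RefSeq lists among the synonyms of Siglecf, starts at chr7:43351341 (GRCm38), where RefSeq places the start of Siglecf. In the authors' deposited table that row had 0.69 FPKM in q2 and 0.0046 FPKM in q1 without a call (q = 0.999), so no fold is drawn from it and it is not counted among the members.

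The mast cell serine proteases were present at moderate levels in both conditions. Tpsb2 encodes a tryptase (mouse mast cell protease 6) that is stored bound to heparin. Tpsb2 stood at 40.9 FPKM in q2 and 86.7 FPKM in q1 in the authors' deposited table (log2 fold change -1.09, q = 0.555). Among the mast cell genes this was the value lowest relative to q1, and 3.95% of tested genes had a lower log2 fold change.

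Cma1 and Mcpt4 encode chymases of connective tissue mast cells. Cma1 was listed at 28.9 FPKM in q2 and 39.6 FPKM in q1 in the authors' deposited table (log2 fold change -0.46, q = 0.999). Mcpt4 was listed at 10.7 FPKM in q2 and 14.01 FPKM in q1 there (log2 fold change -0.39, q = 0.999). The ratio of Cma1 to Mcpt4 was 2.71 in q2 and 2.83 in q1, so both chymase transcripts kept nearly the same proportion while neither passed the test.

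Cpa3 encodes mast cell carboxypeptidase A, which trims peptides after chymase has cut them and is also made by basophils. Cpa3 stood at 13.2 FPKM in q2 and 23.2 FPKM in q1 in the authors' deposited table (log2 fold change -0.82, q = 0.999). All 4 protease genes were therefore lower in q2 on the pooled values, by 1.31 to 2.12-fold as q1 over q2, and none was called. With 1 FPKM added to both values their log2 fold changes ranged from -1.07 to -0.36.

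Kit and Hdc stood apart from the proteases. Kit, the receptor for stem cell factor, was listed at 7.08 FPKM in q2 and 6.81 FPKM in q1 in the authors' deposited table (log2 fold change 0.06, q = 0.999). Hdc encodes histidine decarboxylase, the enzyme that makes histamine, and is active in mast cells, basophils and, in mice, myeloid cells of the neutrophil line. Its value was 61.9 FPKM in q2 and 26.9 FPKM in q1 in the authors' deposited table (log2 fold change 1.20, unadjusted p = 0.00120, q = 0.142), so it did not pass either. Its level was 4.69 times that of Cpa3 in q2 and 1.16 times in q1, and 1.52 times that of Tpsb2 in q2 and 0.31 times in q1. Hdc was the most abundant mast cell gene in q2, ahead of Tpsb2, whereas in q1 it ranked behind Tpsb2 and Cma1.

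Set side by side, the sums of the 2 groups of genes changed order, which rests on Prg2 alone. Prg2 was 96.6% of the eosinophil sum in q2 and 93.6% in q1. Hdc, which moved opposite to the proteases, was 38.1% of the mast cell sum in q2 and 13.6% in q1. The summed FPKM of the 3 eosinophil genes was 527.9 in q2 and 55.5 in q1, and that of the 6 mast cell genes was 162.6 in q2 and 197.3 in q1. The eosinophil sum was 3.25 times the mast cell sum in q2 and 0.28 times in q1. The median log2 fold change was 2.68 over the 3 eosinophil genes and -0.42 over the 6 mast cell genes, beside -0.01 over all tested genes. Within the eosinophil genes the values ran from -0.51 to 3.29, and within the mast cell genes from -1.09 to 1.20, so Il5ra lay below 0 with the mast cell proteases and Hdc above 0 with the eosinophil granule genes. By the authors' unadjusted p below 0.05, 2 eosinophil genes were higher, Hdc was higher and Tpsb2 was lower, against 5.99% of all tested genes in either direction, 3.72% higher and 2.27% lower. Since these are bulk values, fewer cells of a type and less RNA per cell cannot be told apart.

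**Figure D2:**
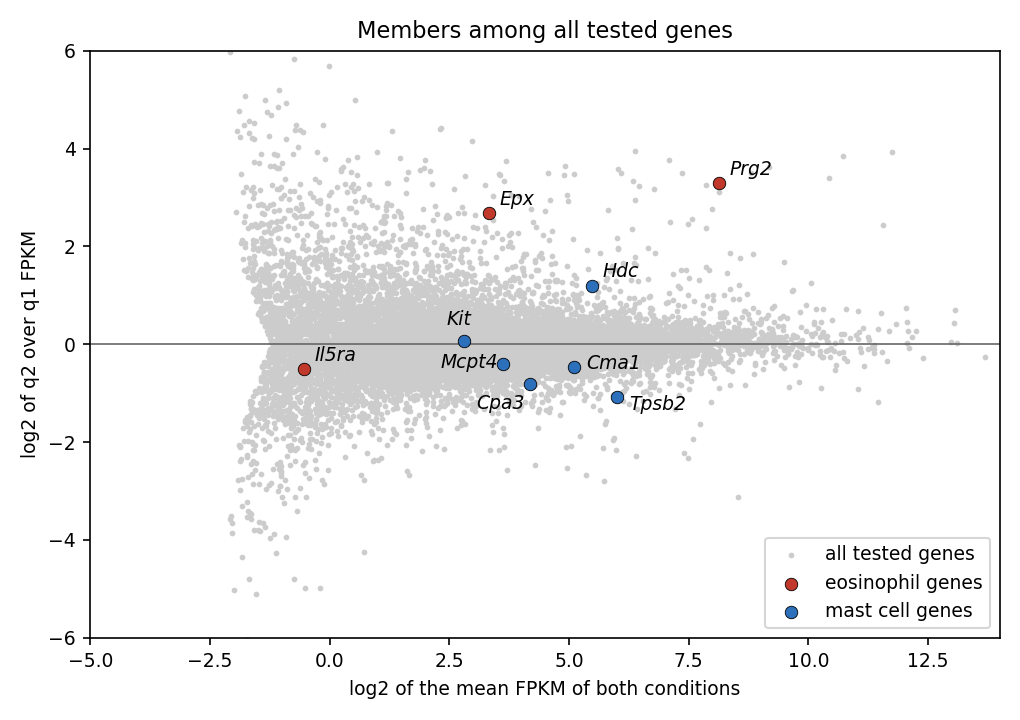
Each grey point is a tested gene above 0 in both conditions, with the log2 of its mean FPKM on the x axis and the log2 of q2 over q1 on the y axis; 12 genes lie outside the plotted range. Prg2 (3.29) and Epx (2.68) lie at the upper edge of the cloud for their level, while Tpsb2 (-1.09) lies toward its lower edge and Kit (0.06) in its middle.

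The values of neutrophil markers moved with those of Prg2 and Epx. All 16 tested neutrophil markers were above 0 and 11 of them were called higher; their median was 3.37 on the log2 scale, with a summed FPKM of 15610 in q2 and 1219 in q1. The 4 called markers with the largest log2 fold changes were S100a8 and S100a9, the subunits of calprotectin, at 3.93 and 3.84 by the authors' deposited table. Mmp8, a collagenase, and Camp, an antimicrobial peptide, followed at 3.64 and 3.63 there. No neutrophil marker was at 0 in either condition. Macrophage markers showed no such shift as a list: 5 of 10 were above 0, with a median of 0.11 and sums of 1825 FPKM in q2 and 972 FPKM in q1. Most of both sums came from 1 marker, Lyz2, at 1504 FPKM in q2 and 633 FPKM in q1 without a call (q = 0.504). Of the macrophage markers Ccr2, a chemokine receptor of monocytes, was the only one called higher, at 25.4 FPKM in q2 and 7.41 FPKM in q1 in the authors' deposited table. The part of marrow or blood granulocytes in the values of Prg2, Epx and Hdc was not tested.

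Markers of the sorted cell type and of other muscle cells were not called. Of 10 satellite cell markers 6 were above 0 and 4 below, and none was called. Their median log2 fold change was 0.06, with sums of 413 FPKM in q2 and 345 FPKM in q1. Pax7, the transcription factor that defines satellite cells, was listed at 0.85 FPKM in q2 and 1.16 FPKM in q1 in the authors' deposited table, below every mast cell member in both conditions. The most abundant were Sdc4 and Vcam1, an adhesion molecule, with log2 fold changes of 0.64 and -0.48 there. The 7 endothelial markers were all below 0, with a median of -0.25 and sums of 1876 FPKM in q2 and 2185 FPKM in q1. The most abundant were Egfl7 and Pecam1 at -0.15 and -0.37. Of the 7 fibro-adipogenic markers 1 was above 0 and 6 below, with a median of -0.23 and sums of 2914 FPKM in q2 and 3089 FPKM in q1. They were led by the matrix proteoglycan gene Dcn and the surface antigen gene Ly6a at 0.16 and -0.23. No marker of these 3 lists was at 0 in either condition.

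Most of the other tested genes of the eosinophil granule had higher pooled values in q2 without being called. The list of 12 names held Prg3, a homologue of Prg2, and the eosinophil-associated ribonucleases of the Ear family, and 5 of its 9 genes in the table were tested. Of these 4 were above 0 and 1 below, and 2 had an unadjusted p below 0.05. Their median of 2.39 on the log2 scale is the value of Ear2, at 15.9 FPKM in q2 and 3.02 FPKM in q1 (q = 0.999). A row that names Ear12 and Ear2 together, at the same position, had a log2 fold change of 0.84. Prg3 was listed at 8.88 FPKM in q2 and 1.80 FPKM in q1 in the authors' deposited table (log2 fold change 2.30, q = 0.727). It starts 4.58 kb beyond the end of Prg2, and the Prg2 level was 57.4 times that of Prg3 in q2 and 28.9 times in q1. Ear1 was listed at 21.4 FPKM in q2 and 1.92 FPKM in q1 there (log2 fold change 3.48, q = 0.180). Ear11, the most abundant of the family in q1, had the opposite direction at 9.42 FPKM in q2 and 22.5 FPKM in q1 (log2 fold change -1.25, q = 0.867); it is also made by macrophages of the mouse.

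Sequence copies make the Ear values uncertain, more so than those of the members. In the GENCODE vM21 transcripts, 57.4% of the 50-base windows of Ear1 and 41.5% of those of Ear2 occur in transcripts of another gene. The same share was 0% for Prg2, Epx, Cpa3, Tpsb2 and Kit, 0.14% for Hdc, 0.90% for Il5ra, 5.38% for Cma1 and 5.48% for Mcpt4. Tpsb2 and its neighbour Tpsab1 shared no such window. No source used here gives the read length, so the window of 50 bases is only a guide to where reads could be split between copies.

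No receptor or enzyme gene of the eosinophil list was called, and its more specific members were low. Of 11 tested genes 10 were above 0 and 1 below, with a median log2 fold change of 0.40 and none called. Csf2rb, the beta chain shared by the receptors for interleukin 5, interleukin 3 and GM-CSF, was listed at 31.8 FPKM in q2 and 30.6 FPKM in q1 in the authors' deposited table. Emr1, which encodes the F4/80 antigen of macrophages and eosinophils, was listed at 23.5 FPKM in q2 and 26.3 FPKM in q1 there. Alox15, a lipoxygenase of eosinophils and some macrophages, was at 4.12 FPKM in q2 and 0.87 FPKM in q1 (log2 fold change 2.24, q = 0.225). Ccr3, the eotaxin receptor, was at 0.52 FPKM in q2 and 0.15 FPKM in q1 (log2 fold change 1.80, q = 0.859). Receptor transcripts that mark eosinophils, Il5ra, Ccr3 and the row named Siglec5, were thus all under 1 FPKM in both conditions.

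Among the ligands that act on eosinophils, chemokine transcripts were abundant and interleukin 5 was low. Of 9 tested ligands 7 were above 0 and 2 below, with a median log2 fold change of 0.57, and none was called. Ccl11, the main eotaxin of the mouse, was listed at 341.8 FPKM in q2 and 170.6 FPKM in q1 in the authors' deposited table (log2 fold change 1.002, q = 0.338). Ccl7, which also binds Ccr3, was listed at 312 FPKM in q2 and 271 FPKM in q1 there (log2 fold change 0.20, q = 0.999). Ccl24, a further eotaxin, was lower at 17.0 FPKM in q2 and 32.3 FPKM in q1 (log2 fold change -0.93, q = 0.741). Il5 was listed at 0.41 FPKM in q2 and 0.25 FPKM in q1 and was not tested by the authors, and Il3 was listed at 0 in both.

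**Figure D3:**
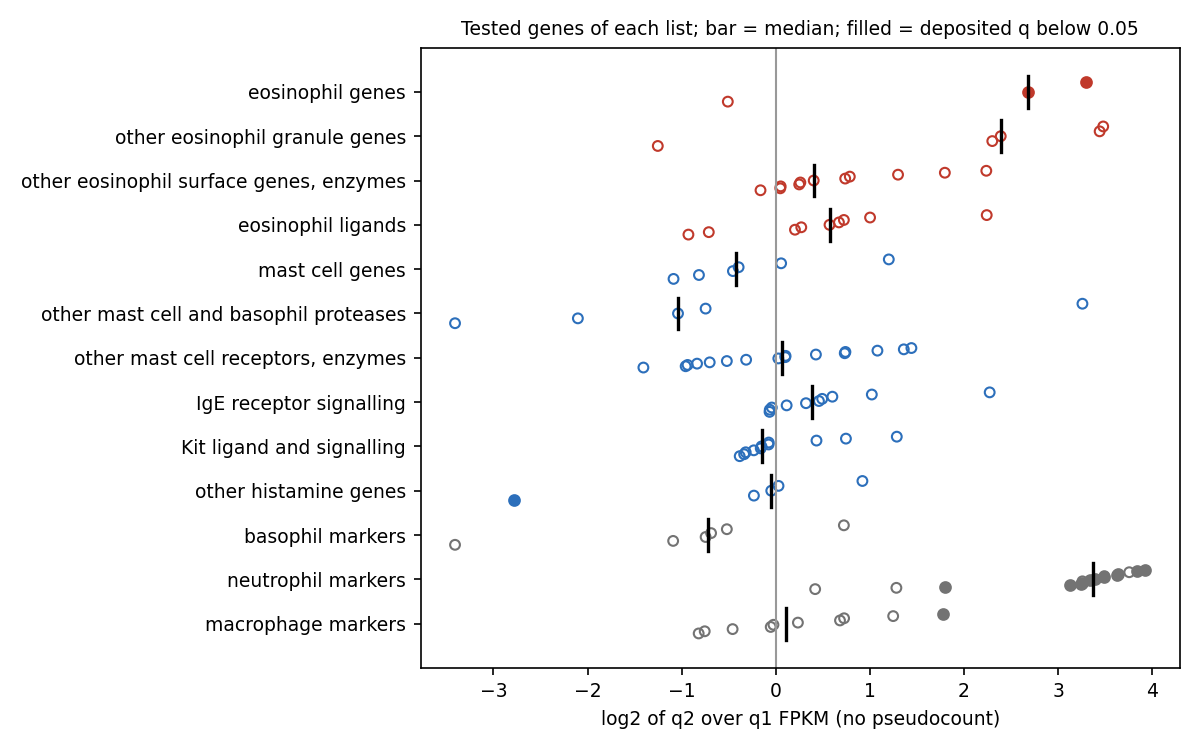
Log2 of q2 over q1 FPKM, without a pseudocount, for the tested genes of each list above 0 in both conditions; filled points have a deposited q below 0.05 and the black bar is the median. The medians are 2.68 for the eosinophil genes and 2.39 for the other eosinophil granule genes, beside 3.37 for the neutrophil markers. They are -0.42 for the mast cell genes and -1.04 for the other mast cell and basophil proteases. The medians of 2.39 and -1.04 are the values of Ear2 and Tpsg1, neither of them called.

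Apart from Ctsg, the other tested mast cell and basophil proteases had lower pooled values in q2, but most of them were low in level. Of 5 tested genes 4 were below 0 and 1 above, and none was called. Their median log2 fold change of -1.04 is the value of Tpsg1, at 0.43 FPKM in q2 and 0.88 FPKM in q1. Mcpt8 and Prss34 were also below 0, at 0.052 and 1.05 FPKM in q2 and at 0.56 and 1.75 FPKM in q1. Tpsab1, a tryptase encoded 20.8 kb from Tpsb2, was listed at 11.6 FPKM in q2 and 50.04 FPKM in q1 in the authors' deposited table (log2 fold change -2.10, q = 0.999). The ratio of Tpsb2 to Tpsab1 was 3.51 in q2 and 1.73 in q1. Ctsg, cathepsin G, is a granule protease of neutrophils and of some mast cells. Ctsg stood at 17.2 FPKM in q2 and 1.80 FPKM in q1 there (log2 fold change 3.26, q = 0.357).

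Ctsg belongs to the same gene cluster as both chymase genes, and the cluster held transcripts with opposite directions. From the Cma1 start, the midpoint of Mcpt4 lies at 116 kb and that of Ctsg at 157 kb on chromosome 14. Between Cma1 and Mcpt4, the protease genes Mcpt1 and Mcpt2, which mark mucosal mast cells, were listed at 0 in both conditions in the authors' deposited table. Mcpt8, a basophil protease, was listed at 0.052 FPKM in q2 and 0.56 FPKM in q1 (q = 0.999). On the pooled values both chymase genes were thus lower in q2 and Ctsg was higher, while none was called.

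**Figure D4:**
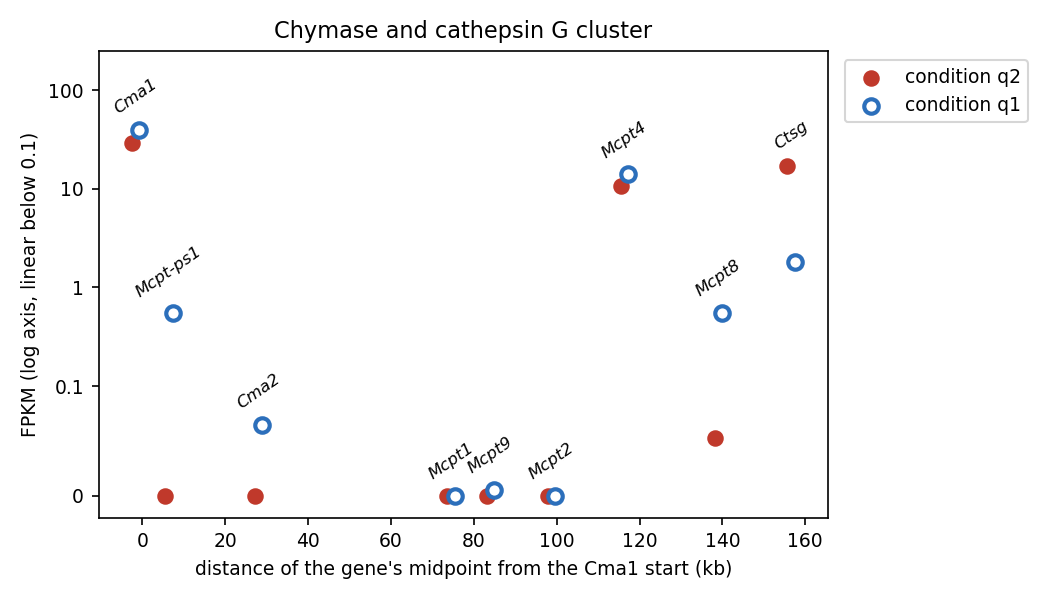
FPKM of the chymase and cathepsin G cluster (log axis, linear below 0.1) against the distance of each gene's midpoint from the Cma1 start; filled red points are q2 and open blue points q1, drawn slightly left and right of the midpoint so that both can be seen. Cma1 and Mcpt4 have slightly lower q2 values, Ctsg has 17.2 in q2 and 1.80 in q1, and Mcpt1 and Mcpt2 lie at 0 in both.

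Epx also lies near a gene of neutrophil granules, and there both were higher in q2. Mpo, the myeloperoxidase of neutrophil granules, is a haem peroxidase like Epx and lies 59.6 kb from it on chromosome 11. Mpo was listed at 159.6 FPKM in q2 and 16.8 FPKM in q1 in the authors' deposited table (log2 fold change 3.25, q = 0.0108), and was the only called neighbour within 100 kb of a member. The third peroxidase gene, Lpo, which lies between them, was listed at 0.014 FPKM in q2 and 0 in q1. The level of Mpo was 9.16 times that of Epx in q2 and 6.17 times in q1. Mks1, which lies 0.32 kb from Epx, was at 1.23 FPKM in q2 and 1.62 FPKM in q1. Of the uncalled tested neighbours, 4930443O20Rik, 90.0 kb from Prg2, had 0.33 FPKM in q2 and 1.16 FPKM in q1 in the authors' deposited table (log2 fold change -1.81, unadjusted p = 0.0452, q = 0.803). Nynrin, 66.7 kb from Cma1, had 1.85 FPKM in q2 and 3.80 FPKM in q1 in the authors' deposited table (log2 fold change -1.04, unadjusted p = 0.0158, q = 0.556). Among the more abundant neighbours, Slc43a3 and Ssrp1 beside Prg2 had a log2 fold change of -0.37 each, Crbn beside Il5ra had 0.26, Gyg beside Cpa3 0.35 and Gabpb1 beside Hdc -0.33 by the authors' deposited table. Of the genes analysed here, no other lies within 100 kb of Kit.

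Receptor and mediator enzyme genes of mast cells lay on both sides of 0. Of 16 tested receptor and enzyme genes 9 were above 0 and 7 below, with a median log2 fold change of 0.06 and none called. The most abundant were Srgn, the serglycin core protein that holds granule proteases, and Cd63, a membrane protein of granules. Srgn was listed at 754 FPKM in q2 and 451 FPKM in q1 in the authors' deposited table (log2 fold change 0.74, q = 0.805), and Cd63 at 521 FPKM in q2 and 485 FPKM in q1 (log2 fold change 0.10, q = 0.999). The genes below 0 were mostly low in level. Among them Fcer1a and Ms4a2, the alpha and beta chains of the high-affinity IgE receptor, were at 0.69 and 0.71 FPKM in q2 and at 0.99 and 1.35 FPKM in q1 (log2 fold changes -0.52 and -0.94). The others were Mrgprb2, a receptor for basic secretagogues, at -1.41, the tryptophan hydroxylase gene Tph1 at -0.96, the steroid enzyme gene Cyp11a1 at -0.84, the interleukin 33 receptor gene Il1rl1 at -0.70 and the 5-lipoxygenase gene Alox5 at -0.31 on the log2 scale, by the authors' deposited table. Rgs13, a regulator of G protein signalling, was listed at 0 in q2 and 0.15 FPKM in q1 and was not tested. Fcer1g, the gamma chain that many myeloid cells carry, was at 261 FPKM in q2 and 102 FPKM in q1 (log2 fold change 1.36, q = 0.162). Alox5ap, which presents arachidonic acid to 5-lipoxygenase, was at 211 FPKM in q2 and 77.5 FPKM in q1 (log2 fold change 1.44, q = 0.0626), just short of the threshold.

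Below the IgE receptor and Kit, no signalling gene was called. Of 10 IgE receptor signalling genes 7 were above 0, with a median of 0.39 and none called; the kinase genes Lyn and Fyn, the most abundant, had 0.32 and -0.04 on the log2 scale by the authors' deposited table. Of 11 genes of Kit ligand and signalling 3 were above 0 and 8 below, with a median of -0.15 and none called. Kitl, which encodes stem cell factor, the ligand of Kit, was listed at 147 FPKM in q2 and 186 FPKM in q1 there (log2 fold change -0.34, q = 0.999). The adaptor gene Shc1 was at 25.8 FPKM in q2 and 30.3 FPKM in q1.

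Of the genes around histamine, Hal fell. Hal encodes histidine ammonia-lyase, which uses the same amino acid as histidine decarboxylase but leads to its breakdown. Hal stood at 13.5 FPKM in q2 and 93.4 FPKM in q1 in the authors' deposited table (log2 fold change -2.79, q = 0.0108), opposite in direction to Hdc. The other 4 tested genes of the list, among them the methyltransferase gene Hnmt and the receptor genes Hrh1 and Hrh2, were not called, and the median over all 5 was -0.05. Slc18a2, the vesicular transporter that loads histamine, stood on the mast cell enzyme list at 11.3 FPKM in q2 and 5.33 FPKM in q1 (log2 fold change 1.08, q = 0.561).

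Basophils share Cpa3, Hdc and the IgE receptor with mast cells, and the genes listed as basophil markers were low. That list also held Fcer1a, of the shared IgE receptor, and Il4, so not all of it is particular to basophils. Mcpt8 and Prss34 stood on the protease list as well. All 6 basophil markers were tested and none was called; 5 were below 0, with a median log2 fold change of -0.72 and sums of 4.74 FPKM in q2 and 6.23 FPKM in q1. The most abundant were Il4, at 1.98 FPKM in q2 and 1.20 FPKM in q1 in the authors' deposited table, and Prss34, a basophil protease, at 1.05 FPKM in q2 and 1.75 FPKM in q1. No basophil marker was at 0 in either condition, and their part in the values of Cpa3 and Hdc was not tested.

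The promoters of the members were searched for AGATAA and TGATAA, which are among the letter strings that GATA factors bind. This was done because Gata1 and Gata2 are known regulators of the eosinophil and mast cell lines. Of the 10 members 8 had a start in the RefSeq promoter table (GRCm38.p6), and Prg2 and Tpsb2 are not shown. In the 250 bases before the start, AGATAA or TGATAA, which share the letters GATAA, was found on either strand for Il5ra, Cpa3 and Mcpt4, or 3 of 8, against 16.6% of all 32851 windows of the same length. Epx had neither motif, nor had Siglecf, Cma1, Kit and Hdc. Other strings that GATA factors bind, such as AGATAG and TGATAG, were not searched. A gene without a match here is therefore not shown to lack such a string. The windows of Epx and of the 3 genes with a match follow 5′ to 3′, with the match in capitals.
Epx (chr11:87875537-87875786, minus strand): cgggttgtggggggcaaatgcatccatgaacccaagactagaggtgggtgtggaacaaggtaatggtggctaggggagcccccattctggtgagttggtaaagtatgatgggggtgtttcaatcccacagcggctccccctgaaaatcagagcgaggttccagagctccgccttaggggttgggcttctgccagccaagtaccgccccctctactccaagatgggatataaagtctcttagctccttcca
Il5ra (chr6:106749038-106749287, minus strand): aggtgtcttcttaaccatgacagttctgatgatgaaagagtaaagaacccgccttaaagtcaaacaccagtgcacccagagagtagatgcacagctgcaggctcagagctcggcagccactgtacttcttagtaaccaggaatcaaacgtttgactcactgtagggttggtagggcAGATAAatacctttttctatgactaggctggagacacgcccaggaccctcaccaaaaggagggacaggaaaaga
Cpa3 (chr3:20242182-20242431, minus strand): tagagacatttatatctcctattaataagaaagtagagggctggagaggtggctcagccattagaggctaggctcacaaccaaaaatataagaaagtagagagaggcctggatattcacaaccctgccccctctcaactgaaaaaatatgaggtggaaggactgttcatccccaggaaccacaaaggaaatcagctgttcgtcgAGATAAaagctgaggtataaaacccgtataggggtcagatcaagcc
Mcpt4 (chr14:56062311-56062560, minus strand): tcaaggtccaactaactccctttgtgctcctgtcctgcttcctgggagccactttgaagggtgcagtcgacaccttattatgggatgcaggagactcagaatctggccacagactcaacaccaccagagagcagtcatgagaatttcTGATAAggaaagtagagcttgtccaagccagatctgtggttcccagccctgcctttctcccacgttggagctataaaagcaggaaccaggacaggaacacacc

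The match began 74 bases before the start in Il5ra, 46 in Cpa3 and 103 in Mcpt4. The letters TATAAA, searched on the gene's strand, began 24 bases before the start in Epx, 31 in Cpa3 and 32 in Mcpt4, and occur in 7.59% of all windows. A match describes letters and not a bound site, and the windows of a gene that rose and of genes that were not called both held TATAAA.

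Because AUF1 binds AU-rich sequences, the longest annotated 3′ UTR of each member was searched for ATTTA on the transcript strand. Prg2 and Epx had none in 114 and 416 bases, nor had Mcpt4, Tpsb2, Cma1 and Hdc. The Tpsb2 UTR, of 768 bases, belongs to a 3-exon transcript of 1289 bases, and the UTRs of its other transcripts were not searched. Il5ra and Cpa3 had 1 each and Kit had 3, and Siglecf had 2, in UTRs of 2025, 185, 2177 and 757 bases. The pentamer occurs in 69.3% of the 13070 tested genes with an annotated 3′ UTR, whose median length is 1136 bases. The longer TATTTAT, found in 29.7% of those genes, was in no member. The sites of the members found in the table follow, 5′ to 3′ and written as DNA, with ATTTA in capitals and positions in GRCm38.
Il5ra (chr6:106711324-106711348, minus strand): ggtcttaaaaATTTAaggtggagag
Cpa3 (chr3:20215657-20215681, minus strand): tcttgtttctATTTActcccaacag
Kit first site (chr5:75655837-75655861, plus strand): actgtctagaATTTActcaaagccg
Kit second site (chr5:75655910-75655934, plus strand): gtcctcctgtATTTAacaacactct
Kit last site (chr5:75655979-75656003, plus strand): agggaaacagATTTAaagtgtaccc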

How the data were processed

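The submitters' processing notes list TopHat2 2.0.9 and Cufflinks 2.2.1, and no source used here gives the strand setting or how libraries were scaled. These notes list mm9 as the build, but of 21539 genes matched to GENCODE vM21 by symbol and chromosome 99.5% overlapped the gene in GRCm38, so positions are given in GRCm38 with 1 added to each start. The authors deposited, per the file headers, 1 pooled value per gene and condition on the FPKM scale of Cuffdiff, a log2 fold change, a test statistic (a score, not used) and both a p-value and a q-value. The deposited q equalled a Benjamini-Hochberg adjustment over the 14858 tested genes. The labels do not say whether samples came from separate mice, so spread behind these p-values may be technical. Fold changes were computed here from the deposited FPKM values with Python 3.11.15 and pandas 2.3.3, without a pseudocount. No test between samples could be run.

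The members and the 18 other gene lists were chosen with earlier results of these data known. Named besides the members were genes within 100 kb of a member, the up to 4 called genes of each list and, for a list without a call, its 2 genes of highest mean; neighbours not described are covered by counts, and other genes named were chosen after their values were seen. Alternatives covered q thresholds, a minimum of 1 FPKM, pseudocounts of 0.1 and 1, centring and the mean. The adjustment and fold functions were tested on simulated data.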

Additional observations from a re-analysis of the deposited data

How the results depend on the processing

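Prg2 and Epx were called under both alternatives tried for the members, a q below 0.1 and at least 1 FPKM with p-values adjusted again. The first outcome follows from the threshold of 0.05 itself and adds nothing. A q below 0.01 was not tried for the members, and at q = 0.0108 neither gene would pass it. Over all tested genes 110 were called at a q below 0.1 and 75 with at least 1 FPKM, against 91 as reported; at a q below 0.01 Cuffdiff's count was 0, since the smallest q is 0.0108, while 890 genes had an unadjusted p below 0.05. The median log2 fold change of the eosinophil genes was 2.63 with a pseudocount of 0.1, 2.31 with 1, 2.69 centred on all tested genes and 2.99 without Il5ra, which the minimum of 1 FPKM removes. That of the mast cell genes was -0.40 with a pseudocount of 1 and -0.41 when centred. The difference between both medians, 3.10 as reported, was 3.06 and 2.71 with pseudocounts of 0.1 and 1, 3.41 with the minimum and 2.07 with means in place of medians. No direction of these medians changed. A pseudocount added to both values cannot reverse a gene's direction, and centring moved values by about 0.01, so nothing is read from this. No paired analysis was possible because the table holds 1 pooled value per condition, and for the same reason no replicate could be left out. The unknown depth limits what can be said of Il5ra, Ccr3 and the other genes under 1 FPKM.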

Other observations

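Most tested transcription factors of the granulocyte lines had higher pooled values in q2, without a call. Of 9 tested factors 8 were above 0 and 1 below, with a median log2 fold change of 0.57. Of all tested genes present in both conditions, 48.7% were above 0. By the authors' unadjusted p below 0.05, 2 factors were higher, Cebpe and Irf8, and 0 were lower. The most abundant, Id2 and Xbp1, had 0.18 and 0.23 on the log2 scale by the authors' deposited table. Cebpe, a factor needed for granule genes of neutrophils and eosinophils, was listed at 6.85 FPKM in q2 and 0.58 FPKM in q1 there (log2 fold change 3.55, q = 0.128). Gata1, the factor that eosinophils need, was listed at 2.39 FPKM in q2 and 0.34 FPKM in q1 (log2 fold change 2.79, q = 0.999); red cell precursors carry it too. Gata2, the factor of mast cells and of endothelium, was the only one below 0, at 21.9 FPKM in q2 and 29.1 FPKM in q1 (log2 fold change -0.41, q = 0.999).

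Other cells that carry Kit were looked for by their markers. Of 7 blood progenitor markers 3 were above 0 and 4 below (median -0.20, none called); Ly6a and Cd34, the most abundant, are also made by endothelial and fibro-adipogenic cells, and Flt3, of early progenitors, was listed at 1.38 FPKM in q2 and 0.26 FPKM in q1 in the authors' deposited table (q = 0.572). Of 6 tested melanocyte markers 1 was above 0 and 5 below (median -0.41, none called), with sums of 12.3 FPKM in q2 and 14.8 FPKM in q1; Tyr, tyrosinase, was listed at 3.70 FPKM in q2 and 4.93 FPKM in q1 in the authors' deposited table, and Sox10, also of Schwann cells, at 3.85 FPKM in q2 and 5.42 FPKM in q1. Of 6 tested markers of type 2 lymphocytes 4 were above 0 and 2 below (median 0.40, none called), led by Rora and Gata3 with log2 fold changes of -0.15 and 0.20 there. The part of these cells in the Kit value was not tested.

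Lines that name several Ear genes together were also uncalled: the line for Ear6 and Ear7 was listed at 14.8 FPKM in q2 and 0.83 FPKM in q1 in the authors' deposited table (q = 0.999), and the line for Ear12 and Ear2 at 7.80 FPKM in q2 and 4.35 FPKM in q1 (q = 0.999).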
